A study of Mus musculus with 12 samples.

Results

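The expression of 10 genes of the follicular helper T (Tfh) cell program was compared between activated mouse CD4+ T cells given metformin, FK506, both drugs or neither. The genes were Bcl6, Il21, Cxcr5, Icos, Sh2d1a, Maf, Tox2, Slamf6, Prdm1 and Il6ra. They were chosen by gene symbol as a set of genes tied to Tfh cells, including Prdm1, whose product opposes the program. All 10 were found among the 45777 genes listed, and all 10 were among the 15197 genes tested. Il21 and Tox2 passed the filter on low values (0.5 FPKM or more in 3 or more samples) through the groups in which they were high, in 6 of 12 samples each, and the other 8 genes reached that level in all 12 samples. FPKM divides a gene's fragments by the length of its transcript and by library size, so that levels can be set side by side between genes.

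All 12 samples were CD4+ T cells from spleens of wild type C57BL/6 mice aged 7 weeks by the labels, stimulated with anti-CD3 (0.5 µg/ml) for 3 days. Cells in Control (named Th0 in the sample descriptions) received no drug, and the other groups received Metformin, FK506 or Metformin+FK506, with 3 samples in each of the 4 groups. FK506 (tacrolimus) inhibits the phosphatase calcineurin and with it the transcription factor NFAT, and metformin is an antidiabetic drug that activates the kinase AMPK. The study's methods name isolation with magnetic beads and list anti-CD28 besides anti-CD3 for activation. The labels name no cytokines and no partner cells in these cultures, the drug doses of these cultures are not given in the sources used here, and the labels do not say whether the 3 samples of a group came from separate mice or cultures, so that the p-values measure only the spread between these samples, which may be technical.

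Tfh cells are the CD4+ T cells that enter B cell follicles and help B cells form germinal centres. The repressor Bcl6 directs the program and is opposed by Blimp-1, the product of Prdm1. IL-6 and ICOS signals favour Bcl6, the chemokine receptor CXCR5 brings the cell into the follicle, adhesion to B cells runs through SLAM family receptors and their adaptor SAP, and IL-21 is the cytokine by which Tfh cells act on B cells. B cells themselves also express Bcl6, Cxcr5 and Slamf6, and plasma cells express Prdm1.

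Between 43402632 and 64290105 reads were counted per sample. Cd4 stood at 140 ± 2.45 FPKM (SD, n = 3) in Control and higher in the other groups, up to 242 ± 13.9 FPKM in Metformin+FK506. Il2, the classical calcineurin target, fell in Metformin (log2 fold change -1.25, SE 0.26), FK506 (-2.67, SE 0.28) and Metformin+FK506 (-2.17, SE 0.27) against Control by edgeR's quasi-likelihood test, with adjusted p of 0.000601, 1.65e-07 and 1.45e-06. Transcripts of markers of other cells were counted in every group, at levels that differed between groups. The summed FPKM of 10 B cell markers (led by Cd79a) ran from 62.9 to 66.9 in Control, from 87.2 to 102 in Metformin, from 886 to 926 in FK506 and from 427 to 458 in Metformin+FK506. For 10 myeloid markers (led by Lyz2) the sums were 4.40 to 4.57, 8.73 to 10.0, 1280 to 1330 and 844 to 955 in the same order, and C1qa and Fcgr1 were at 0 in every sample of Control and Metformin. The sums of 12 T cell markers (led by Cd5) were 2600 to 2660, 2400 to 2520, 2180 to 2290 and 2270 to 2380 FPKM in the same order of groups. In edgeR's test against Control (adjusted p under 0.05), 8 of the 12 were lower and 4 higher in FK506, beside 39.6% and 41.3% of all genes. In Metformin+FK506 8 were lower and 3 higher (39.6% and 42.1%), and in Metformin 5 and 5 (27.4% and 28.6%). Cd4 and Cd3e were among the higher in all 3 comparisons and do not stand for the whole list. The 5 plasma cell markers (led by Mzb1) summed to between 20.4 and 23.7 FPKM in Control and Metformin, to 98.9 to 106 in FK506 and to 59.2 to 63.9 in Metformin+FK506, and the 5 markers of CD8 T and NK cells (led by Cd8b1) to between 9.49 and 19.3 in all groups. The part that these other cells had in the levels below was not tested, and in RNA from whole cultures fewer cells of a type and less RNA per cell cannot be told apart.

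Bcl6 was low in Control, with a mean of 1.40 FPKM, and was raised by each drug. Il21 stood at a mean of 13.3 FPKM in Control and was lowered by each. Cxcr5, Sh2d1a and Tox2 rose mainly with FK506, Slamf6 rose with both drugs, and Icos stayed within a factor of 1.41 between group means. Maf and Prdm1 fell with metformin alone and rose with FK506. Against Control, 9 of 10 genes passed the threshold in FK506 (8 higher, 1 lower), where 80.9% of all genes tested did (41.3% higher, 39.6% lower). In Metformin 8 of 10 passed (4 higher, 4 lower), against 56% of all genes (28.6% higher, 27.4% lower), and in Metformin+FK506 9 of 10 (8 higher, 1 lower), against 81.7% (42.1% higher, 39.6% lower). A change of at least 1 in log2 was passed by 6 of the genes in FK506 (36.6% of all genes), 5 in Metformin (10.5%) and 6 in Metformin+FK506 (37.4%). These 3 comparisons share the Control samples. Prdm1, whose product opposes the program, counts among the rises in FK506 and Metformin+FK506 and among the falls in Metformin. A gene counted as changed when its adjusted p in edgeR's quasi-likelihood test was under 0.05 (Benjamini-Hochberg over all genes tested). The median log2 fold change of the 10 genes was 0.98 in FK506, 0.095 in Metformin and 1.04 in Metformin+FK506, beside 0.024, 0.011 and 0.033 over all genes tested.

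**Figure D1:**
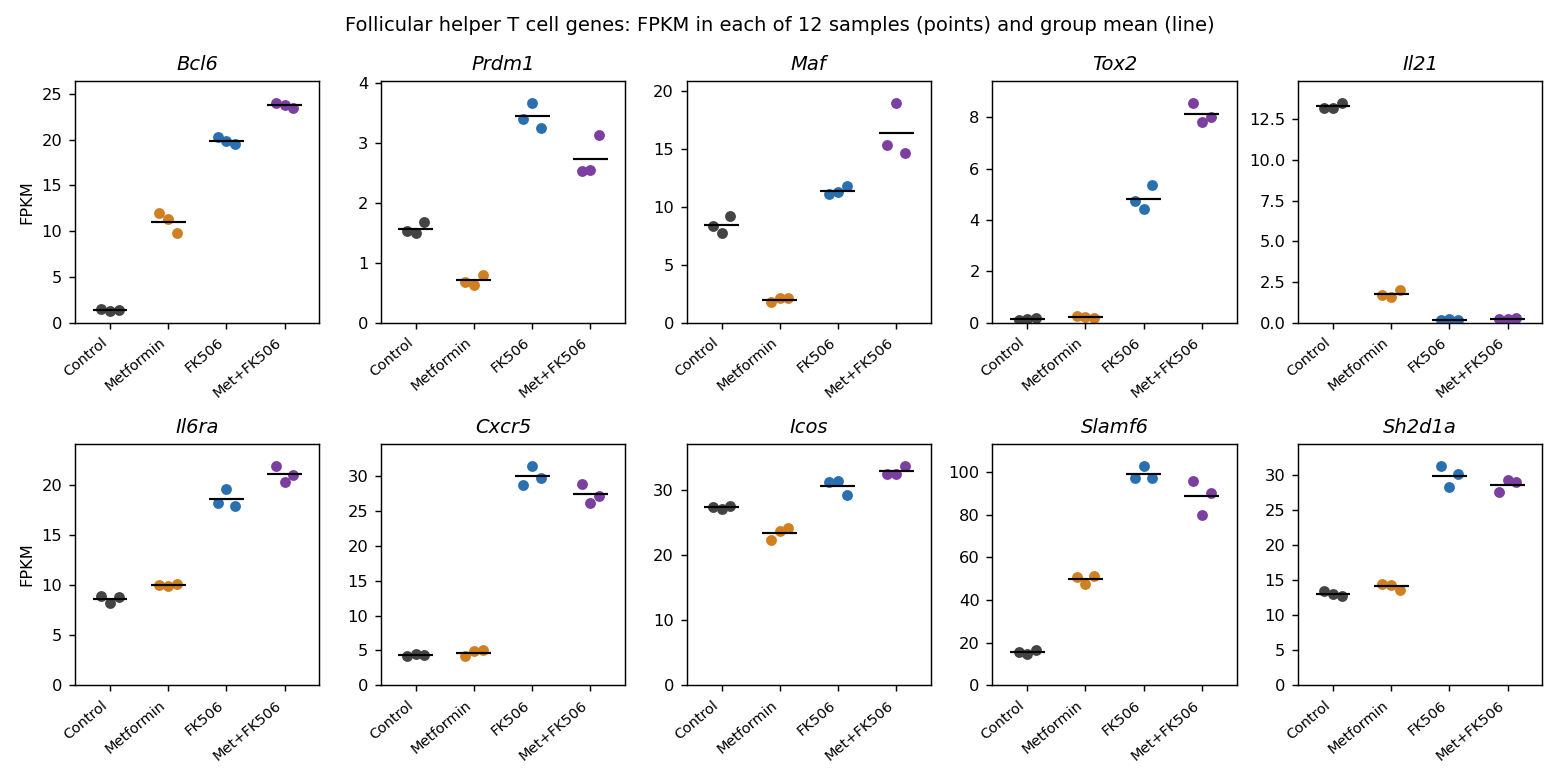
FPKM (vertical axes, linear from 0) of the 10 genes in each of the 12 samples by treatment, with points for samples and a line for the mean of 3 samples. Bcl6 rises from a mean of 1.40 in Control to 23.7 in Metformin+FK506, Il21 falls from 13.3 to 0.241, and Icos stays between 22.3 and 33.7 in every sample.

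Bcl6 (chr16:23965050-23988866, GRCm38.p6), the repressor that directs the Tfh program, rose in every treated group. It stood at 1.52, 1.26 and 1.43 FPKM in the 3 Control samples, at 12, 11.3 and 9.82 in Metformin, at 20.3, 19.9 and 19.5 in FK506 and at 24.0, 23.8 and 23.4 in Metformin+FK506. No 2 groups overlapped, so the order Control, Metformin, FK506, Metformin+FK506 held in every sample. The log2 fold change against Control was 3.03 (SE 0.062, adjusted p = 1.53e-15, edgeR) in Metformin, 3.63 (SE 0.061, adjusted p = 1.14e-17) in FK506 and 3.87 (SE 0.061, adjusted p = 7.44e-18) in Metformin+FK506. Adding metformin to FK506 raised Bcl6 by a further 0.24 (SE 0.049, adjusted p = 0.00129), and adding FK506 to metformin raised it by 0.84 (SE 0.050, adjusted p = 1.39e-10). All 10 B cell markers were lower in Metformin+FK506 than in FK506 (median log2 fold change -0.99), as were 15% of all genes. All 10 were higher in Metformin+FK506 than in Metformin (median 2.19), as were 40.3% of all genes. The part of B cells in the level of Bcl6 was not tested. Relative to the T cell marker Cd3e, Bcl6 stood at 0.00921 ± 0.000708 in Control, 0.0553 ± 0.00720 in Metformin, 0.102 ± 0.00165 in FK506 and 0.0980 ± 0.00155 in Metformin+FK506 (ratio of FPKM, SD, n = 3). This ratio was higher in every treated sample than in any Control sample. It was lower in every Metformin+FK506 sample (0.0963 to 0.0993) than in every FK506 sample (0.1 to 0.103). The further rise on adding metformin to FK506 was thus not seen relative to Cd3e. Cd3e itself was higher in Metformin+FK506 than in FK506 (log2 fold change 0.34, SE 0.038).

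The sequences upstream of Bcl6 and Il21 are shown because these were the genes of the set with the largest rise and the largest fall in Metformin. RefSeq promoter windows (GRCm38.p6) were at hand for Bcl6, Il21, Tox2, Slamf6, Prdm1 and Il6ra, and none was matched for Cxcr5, Icos, Sh2d1a and Maf. Capitals mark matches, on either strand, to the NFAT core GGAAA and to the STAT motif TTCNNNGAA, and each stretch is written 5′ to 3′ on the gene's own strand and ends before the start named. The first stretch lies upstream of Bcl6 (chr16:23988867-23989102, minus strand) and the next at a second start within the gene, in an intron (chr16:23981284-23981533, minus strand).
Bcl6 first start: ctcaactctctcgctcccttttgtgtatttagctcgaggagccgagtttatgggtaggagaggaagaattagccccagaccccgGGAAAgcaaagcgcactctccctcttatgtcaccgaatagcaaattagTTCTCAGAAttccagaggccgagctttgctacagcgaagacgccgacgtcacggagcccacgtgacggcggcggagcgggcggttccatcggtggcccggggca
Bcl6 second start: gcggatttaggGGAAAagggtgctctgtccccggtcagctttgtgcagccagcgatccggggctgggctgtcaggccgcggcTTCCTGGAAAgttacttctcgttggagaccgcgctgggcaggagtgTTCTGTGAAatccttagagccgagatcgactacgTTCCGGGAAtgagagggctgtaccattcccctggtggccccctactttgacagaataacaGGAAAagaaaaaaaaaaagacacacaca
The window at the first start held 1 NFAT core and 1 STAT match. The window at the second start held 4 NFAT cores, of which 1 lies past the start and is not printed, and 3 STAT matches, of which 1 overlaps an NFAT core. Of all 32851 promoter windows, 61.3% held the NFAT core and 8.3% the STAT motif, so the core alone is common. A match is a description of letters and not a binding site.

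Prdm1 (chr10:44437174-44528558) encodes Blimp-1, the factor that opposes Bcl6. It read 1.52, 1.5 and 1.68 FPKM in Control, 0.683, 0.635 and 0.790 in Metformin, 3.40, 3.66 and 3.25 in FK506 and 2.53, 2.54 and 3.12 in Metformin+FK506. Metformin was lowest and FK506 highest, with no overlap between any groups. Against Control the log2 fold change was -1.17 (SE 0.11, adjusted p = 1.02e-07, edgeR) in Metformin, 0.94 (SE 0.098, adjusted p = 1.76e-07) in FK506 and 0.65 (SE 0.099, adjusted p = 1.37e-05) in Metformin+FK506. Between Metformin+FK506 and FK506 it was -0.29 (SE 0.096, adjusted p = 0.0318), a call that was lost without FK506 replicate 1, 2 or 3 or Metformin+FK506 replicate 1 or 2 (adjusted p between 0.0509 and 0.103) and in limma on log2(FPKM + 0.1) and log2(TPM + 1) (adjusted p = 0.0573 and 0.0509). The plasma cell markers, which Prdm1 accompanies in B lineage cells, were also higher in FK506 than in Control in 3 of 4 tested, beside 41.3% of all genes. The ratio of Bcl6 to Prdm1 (FPKM) was 0.897 ± 0.0890 in Control, 15.9 ± 3.04 in Metformin, 5.80 ± 0.319 in FK506 and 8.79 ± 1.13 in Metformin+FK506. Each treated sample lay above every Control sample, whose highest ratio was 1.00. The Prdm1 window held 1 match to the AP-1 motif TGANTCA, which 7.81% of all windows hold, and no match to the other motifs.

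Maf (chr8:115703253-115706894), which encodes a factor that drives Il21 and Il4 in Tfh cells, fell with metformin alone and was highest with both drugs. Its levels were 8.36, 7.75 and 9.21 FPKM in Control, 1.8, 2.1 and 2.1 in Metformin, 11.1, 11.3 and 11.8 in FK506 and 15.4, 19.0 and 14.7 in Metformin+FK506. Metformin samples were thus the lowest and Metformin+FK506 samples the highest, again with no overlap. The log2 fold change was -2.10 (SE 0.11, adjusted p = 6.72e-11, edgeR) for Metformin against Control, and 0.55 (SE 0.091, adjusted p = 0.000221) for Metformin+FK506 against FK506. The rise in FK506 against Control was small (0.22, SE 0.093, adjusted p = 0.0425) and was lost without Control replicate 1 or 2 or FK506 replicate 2 or 3 (adjusted p between 0.0631 and 0.171), without a filter on low values (adjusted p = 0.114) and in limma after quantile normalization (adjusted p = 0.0714), while the rise in Metformin+FK506 was 0.77 (SE 0.092, adjusted p = 9.20e-07).

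Tox2 (chr2:163203058-163324172), an HMG-box factor that supports Tfh differentiation, was low without FK506. It read 0.104, 0.152 and 0.176 FPKM in Control and 0.243, 0.207 and 0.168 in Metformin, from 21 to 46 reads a sample. In FK506 it read 4.74, 4.42 and 5.35 FPKM and in Metformin+FK506 8.56, 7.81 and 8. Control and Metformin overlapped, and the FK506 groups stood above both and apart from each other. Against Control the log2 fold change was 4.67 (SE 0.14, adjusted p = 1.37e-14, edgeR) in FK506 and 5.47 (SE 0.14, adjusted p = 1.69e-15) in Metformin+FK506, the largest rises of the 10 genes in both comparisons. Adding metformin to FK506 raised Tox2 by 0.80 (SE 0.098, adjusted p = 1.20e-05). For Metformin against Control the value of 0.58 (SE 0.19, adjusted p = 0.0145) lost its call without Control replicate 1 (adjusted p = 0.0616) or Metformin replicate 1 (adjusted p = 0.0608), in all 4 limma settings (0.062 to 0.33, adjusted p between 0.0726 and 0.506) and in a fit of these groups only (adjusted p = 0.0738). Of the 5 RefSeq start windows of Tox2, 2 overlapping ones held the NFAT core once each. The 9 tested myeloid markers were all higher in FK506 than in Control, as were 41.3% of all genes. All of them but Cd68 reached 0.5 FPKM only in samples with FK506, so that this count was largely set by the filter. Between Metformin+FK506 and FK506 2 of the 9 were higher, 1, Lyz2, was lower and 6 did not pass (median log2 fold change 0.11). Of all genes 15.6% were higher and 15% lower there. The part of myeloid cells in the level of Tox2 was not tested.

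Il21 (chr3:37222759-37232636) encodes IL-21, the main cytokine of Tfh cells, and was the only gene of the 10 that fell in every treated group against Control. The 3 Control samples read 13.2, 13.2 and 13.5 FPKM and the Metformin samples 1.67, 1.58 and 1.98. FK506 samples read 0.179, 0.204 and 0.144 and Metformin+FK506 samples 0.238, 0.205 and 0.280, from 23 to 47 reads a sample. Every treated sample lay far below Control, and those with FK506 far below Metformin. Against Control its log2 fold change was -2.97 (SE 0.10, adjusted p = 6.26e-13, edgeR) in Metformin, -6.39 (SE 0.13, adjusted p = 1.44e-16) in FK506 and -5.96 (SE 0.13, adjusted p = 2.36e-16) in Metformin+FK506. Between Metformin+FK506 and FK506 the difference of 0.43 (SE 0.18) did not pass (adjusted p = 0.0865), although all 3 FPKM values were higher. Against Metformin, Metformin+FK506 was lower by a log2 fold change of -2.995 (SE 0.13, adjusted p = 3.74e-12). The sequence upstream of Il21 (chr3:37232637-37232886, GRCm38.p6, minus strand, from RefSeq) is marked in the same way.
Il21 start: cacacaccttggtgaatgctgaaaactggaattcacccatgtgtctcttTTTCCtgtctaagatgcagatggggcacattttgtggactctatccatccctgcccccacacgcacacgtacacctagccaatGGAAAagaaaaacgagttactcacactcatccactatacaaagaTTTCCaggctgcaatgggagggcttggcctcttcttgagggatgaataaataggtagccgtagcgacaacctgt
Capitals mark its 3 NFAT cores, and no match to the AP-1 or STAT motifs was found in the window. The far end of this stretch overlaps Gm43822, an unconfirmed gene on the opposite strand, in the GENCODE annotation.

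Il6ra (chr3:89869324-89913196) encodes the alpha chain of the IL-6 receptor, through which IL-6 promotes Bcl6. Its levels were 8.92, 8.22 and 8.80 FPKM in Control, 9.96, 9.91 and 10.1 in Metformin, 18.2, 19.6 and 17.9 in FK506 and 21.9, 20.3 and 21.0 in Metformin+FK506. The 4 groups stood in that order without overlap. Against Control it rose by a log2 fold change of 0.18 (SE 0.048, adjusted p = 0.00446, edgeR) in Metformin, 0.89 (SE 0.047, adjusted p = 2.45e-11) in FK506 and 1.09 (SE 0.047, adjusted p = 1.52e-12) in Metformin+FK506. Metformin added to FK506 raised it by 0.21 (SE 0.045, adjusted p = 0.00239). No NFAT, AP-1 or STAT letters were matched in the windows of Il6ra and Slamf6.

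Cxcr5 (chr9:44511787-44526444), the receptor for the follicle chemokine CXCL13, rose in the groups with FK506. It read 4.19, 4.53 and 4.40 FPKM in Control, 4.19, 4.90 and 5.01 in Metformin, 28.8, 31.5 and 29.7 in FK506 and 28.9, 26.2 and 27.1 in Metformin+FK506. The groups without FK506 overlapped each other and those with FK506 overlapped each other, with a wide gap between the pairs. The log2 fold change was 2.56 (SE 0.065, adjusted p = 1.83e-15, edgeR) for FK506 against Control and 2.45 (SE 0.065, adjusted p = 3.17e-15) for Metformin+FK506 against Control. For Metformin against Control it was 0.072 (SE 0.070, adjusted p = 0.403), and for Metformin+FK506 against FK506 -0.11 (SE 0.058, adjusted p = 0.172), neither past the threshold, although the latter passed when counts were scaled to the T cell markers (-0.18, adjusted p = 0.0352). The summed B cell markers were at 62.9 to 66.9 FPKM in Control and at 886 to 926 FPKM in FK506. The ratio of Cxcr5 to Cd3e (FPKM) was 0.0287 ± 0.00173 in Control and 0.154 ± 0.0108 in FK506.

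**Figure D2:**
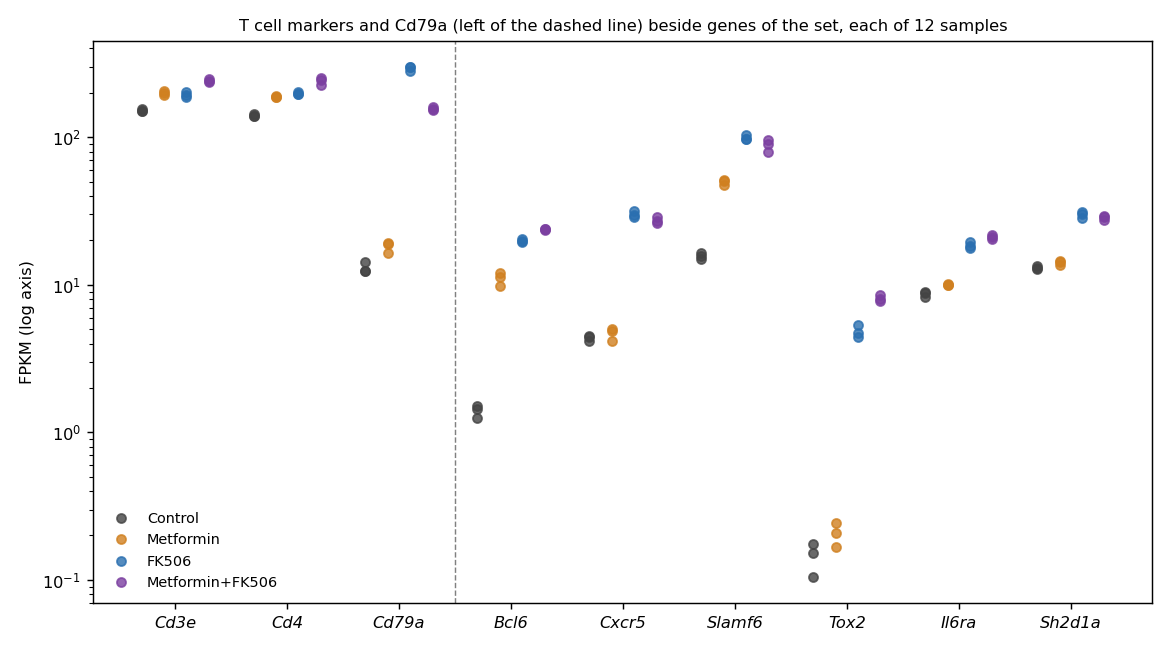
FPKM (log axis) of the T cell markers Cd3e and Cd4, the B cell marker Cd79a and 6 genes of the Tfh set in each of the 12 samples, with colours for the treatments. Cd79a is higher in FK506 (mean 294) than in Metformin+FK506 (156). The means of Slamf6 (99.1 and 88.7), Cxcr5 (30.0 and 27.4) and Sh2d1a (29.8 and 28.6) are also higher in FK506. For Cxcr5 and Sh2d1a these 2 groups overlap. Bcl6, Tox2 and Il6ra are highest in Metformin+FK506.

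Slamf6 (chr1:171917458-171948958), a SLAM family receptor through which T cells and B cells adhere, had the highest FPKM of the 10 genes in every group but Control, where Icos was higher. Control samples read 15.8, 14.9 and 16.4 FPKM, Metformin samples 50.6, 47.4 and 51.4, FK506 samples 97.2, 103 and 97.2 and Metformin+FK506 samples 95.6, 80.1 and 90.4. No groups overlapped, with FK506 above Metformin+FK506 by a small margin. Against Control Slamf6 had a log2 fold change of 1.57 (SE 0.055, adjusted p = 7.86e-13, edgeR) in Metformin, 2.64 (SE 0.055, adjusted p = 1.64e-16) in FK506 and 2.43 (SE 0.055, adjusted p = 4.64e-16) in Metformin+FK506. Metformin+FK506 was lower than FK506 by a log2 fold change of -0.21 (SE 0.050, adjusted p = 0.00432), which did not pass in any of the 4 limma settings (adjusted p between 0.0628 and 0.324). Per Cd3e, Slamf6 stood at 0.103 ± 0.00544 in Control, 0.249 ± 0.0106 in Metformin, 0.509 ± 0.0267 in FK506 and 0.367 ± 0.0382 in Metformin+FK506. Cd3e itself was higher in every treated group than in Control, whereas 8 of the 12 T cell markers were lower in FK506 and in Metformin+FK506.

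Sh2d1a (chrX:42502565-42522097) encodes SAP, the adaptor that binds SLAM family receptors in T cells. It read 13.4, 13.0 and 12.8 FPKM in Control, 14.5, 14.3 and 13.6 in Metformin, 31.3, 28.2 and 30.1 in FK506 and 27.5, 29.2 and 29.0 in Metformin+FK506. The groups with FK506 overlapped each other, and all their samples lay above all samples without it. FK506 raised it by a log2 fold change of 1.02 (SE 0.067, adjusted p = 4.62e-10, edgeR) and Metformin+FK506 by 0.98 (SE 0.068, adjusted p = 7.76e-10) against Control. In Metformin the change of 0.12 (SE 0.069) did not pass (adjusted p = 0.160), nor did that of -0.040 (SE 0.065) between Metformin+FK506 and FK506 (adjusted p = 0.686).

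Icos (chr1:60960773-61000322), the costimulatory receptor that Tfh cells need to persist, was the highest of the 10 genes in Control. Its samples read 27.3, 27.1 and 27.5 FPKM in Control, 22.3, 23.7 and 24.1 in Metformin, 31.2, 31.3 and 29.2 in FK506 and 32.4, 32.5 and 33.7 in Metformin+FK506. The FPKM of the groups did not overlap, with Metformin lowest and Metformin+FK506 highest, but the largest ratio between 2 group means was 1.41. In Metformin Icos was lower by a log2 fold change of -0.26 (SE 0.040, adjusted p = 4.33e-05, edgeR), which became -0.10 and did not pass (adjusted p = 0.0570) when counts were scaled to the T cell markers. In FK506 the change against Control was -0.054 (SE 0.039, adjusted p = 0.218) after TMM scaling and turned to 0.17 (adjusted p = 0.000901) when counts were scaled to library totals alone and to 0.43 (adjusted p = 7.23e-08) when they were scaled to the T cell markers, so no direction is given. Metformin+FK506 against Control was 0.074 (SE 0.039, adjusted p = 0.0947), and it passed in 7 other settings, with values from 0.10 (adjusted p = 0.0216) among genes with a mean FPKM of at least 1 through 0.29 (adjusted p = 3.70e-06) with total counts and 0.49 (adjusted p = 1.36e-08) with T cell marker scaling to 0.53 (adjusted p = 5.32e-08) with limma on TPM. Relative to Cd3e alone the order turned. The ratio of Icos to Cd3e (FPKM) was 0.179 ± 0.00403 in Control, 0.116 ± 0.00239 in Metformin, 0.157 ± 0.0045 in FK506 and 0.136 ± 0.00541 in Metformin+FK506. Cd3e is a single marker that was higher in every treated group than in Control. By contrast, 8 of the 12 T cell markers were lower in FK506 and in Metformin+FK506. No direction is therefore given for Icos in Metformin+FK506 either. Metformin+FK506 against FK506 was 0.13 (SE 0.039, adjusted p = 0.0214), a call lost without FK506 replicate 3 or Metformin+FK506 replicate 2 or 3 (adjusted p between 0.0577 and 0.139). It was also lost with T cell marker scaling (0.059, adjusted p = 0.316), without a filter on low values (0.11, adjusted p = 0.105), in limma with either FPKM pseudocount (0.10, adjusted p = 0.0690 and 0.0720) and in a fit of these groups only (0.13, adjusted p = 0.0649).

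**Figure D3:**
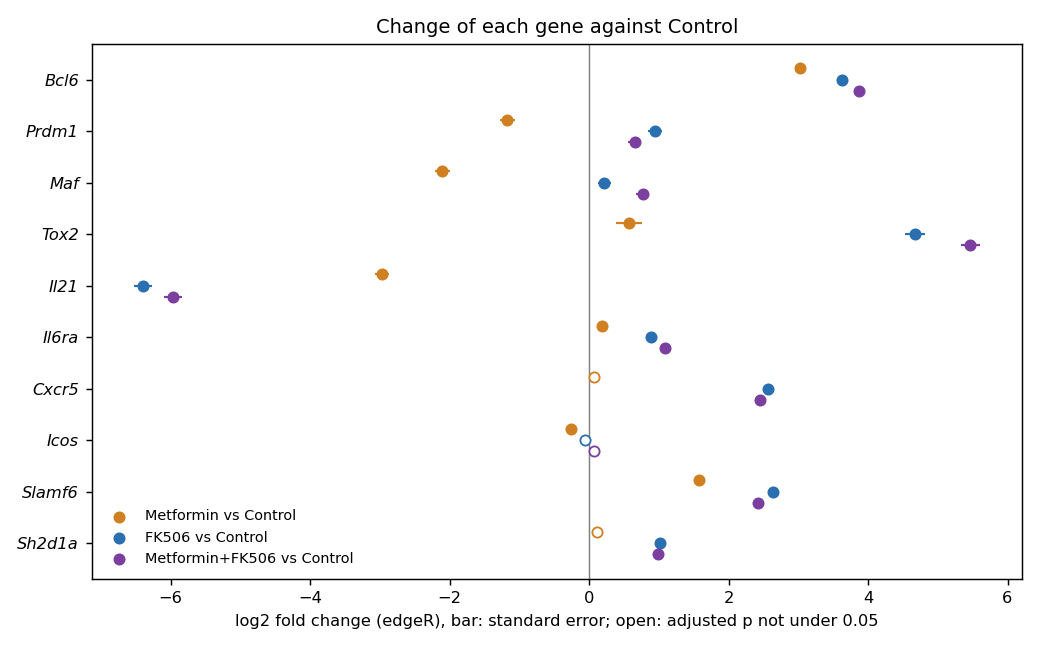
Log2 fold change against Control (horizontal axis, edgeR, bars for the standard error) of the 10 genes in Metformin, FK506 and Metformin+FK506, with open points where the adjusted p was not under 0.05. Tox2 reaches 5.47 and Il21 -6.39, Maf and Prdm1 fall in Metformin (-2.10 and -1.17), and the points of Icos lie between -0.26 and 0.074, where the side of zero in FK506 depends on the scaling.

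Whether metformin acted alike in the presence and the absence of FK506 was tested by the interaction, which is the log2 fold change of Metformin+FK506 against FK506 minus that of Metformin against Control. It passed for 6 of 10 genes (4 positive, 2 negative), against 46.5% of all genes tested (22.5% positive, 24% negative), and for 4 of them with a size of at least 1 (11.9% of all genes). Bcl6 (-2.79, SE 0.079, adjusted p = 1.75e-13, edgeR) and Slamf6 (-1.78, SE 0.074, adjusted p = 1.36e-11) rose with metformin alone, whereas on top of FK506 Bcl6 rose little and Slamf6 did not rise. Il21 (3.40, SE 0.21, adjusted p = 1.67e-09) fell with metformin alone, and on top of FK506, where 23 to 47 reads a sample remained, its change did not pass. Maf (2.66, SE 0.14, adjusted p = 2.23e-10) fell with metformin alone and rose with metformin on top of FK506. For Prdm1 the interaction was 0.88 (SE 0.14, adjusted p = 9.41e-05) and for Icos 0.38 (SE 0.056, adjusted p = 3.35e-05). It did not pass for Cxcr5 (-0.18, adjusted p = 0.116), Sh2d1a (-0.16, adjusted p = 0.189), Tox2 (0.22, adjusted p = 0.425) and Il6ra (0.027, adjusted p = 0.772), and each of these depended on the setting. Without Metformin replicate 1 it passed for Cxcr5 (-0.26, adjusted p = 0.0188). Scaled to T cell markers it passed for Cxcr5 (-0.41, adjusted p = 0.00198), Sh2d1a (-0.38, adjusted p = 0.00260) and Il6ra (-0.20, adjusted p = 0.0303). In limma on FPKM it passed for Sh2d1a with either pseudocount (-0.17 and -0.18, adjusted p = 0.0451 and 0.0442), and for Tox2 it passed on log2(FPKM + 1) without and with quantile normalization and on log2(TPM + 1) (0.57, 0.64 and 0.61, adjusted p = 0.000579, 0.000256 and 0.00278). B cell markers also had a negative interaction in 9 of 10 (median -1.60).

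**Figure D4:**
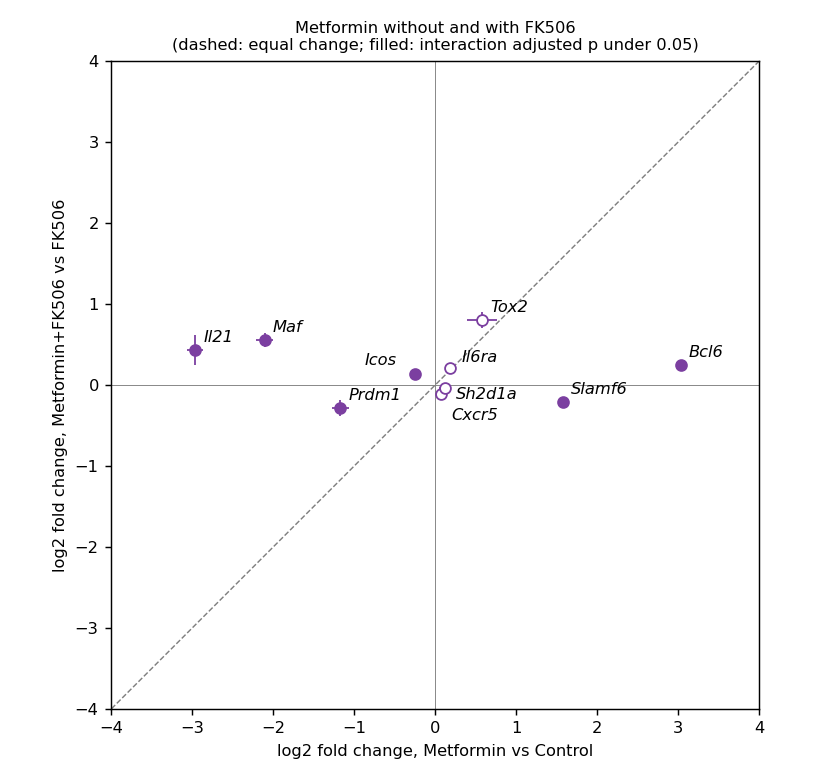
Log2 fold change for Metformin against Control (horizontal) and Metformin+FK506 against FK506 (vertical) of the 10 genes, with bars for the standard error, a dashed line where both are equal and filled points where the interaction passed. Bcl6 lies at 3.03 and 0.24, Il21 at -2.97 and 0.43 and Maf at -2.10 and 0.55, so that on the vertical axis every gene lies within 1 of zero.

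Of the 10 genes, 7 differed between Metformin+FK506 and FK506 (5 higher, 2 lower), where 30.7% of all genes tested did (15.6% higher, 15% lower). None of the 7 changes reached 1 on the log2 scale, a size that 4.21% of all genes passed. The higher genes were Tox2, Maf, Bcl6, Il6ra and Icos, and the lower ones Prdm1 and Slamf6. The median of the 10 genes was 0.17, beside 0.0019 over all genes. Between Metformin+FK506 and Metformin all 10 differed (9 higher, 1 lower), where 78.2% of all genes did (40.3% higher, 37.9% lower), and 5 did so by at least 1 in log2 (32.2% of all genes). There the log2 fold change was 4.89 for Tox2, 2.87 for Maf, 2.38 for Cxcr5, 1.82 for Prdm1, 0.91 for Il6ra, 0.86 for Sh2d1a, 0.85 for Slamf6 and 0.33 for Icos. The largest adjusted p among these 8 was that of Icos (1.10e-06, edgeR). The FPKM of the groups did not overlap for 10 of 10 genes in FK506 against Control (84.4% of all genes tested), 8 in Metformin against Control (65%), 10 in Metformin+FK506 against Control (82%), 8 in Metformin+FK506 against FK506 (38.6%) and 10 in Metformin+FK506 against Metformin (78.2%).

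Further factors listed for the Tfh program moved apart from each other. The list is mixed, since most promote Tfh cells whereas Id3 and Bach2 are known to restrain them, and both of these count among the rises in FK506. Of 11 listed, 10 were tested, and in FK506 6 rose and 4 fell (median 0.35), beside 41.3% and 39.6% of all genes. In Metformin 4 rose and 4 fell (median -0.039), beside 28.6% and 27.4%, and in Metformin+FK506 against Control 5 rose and 4 fell (median 0.14), beside 42.1% and 39.6%. Tcf7, which encodes TCF-1, an early inducer of Bcl6, rose by a log2 fold change of 1.57 (SE 0.031) in Metformin, 2.58 (SE 0.031) in FK506 and 2.61 (SE 0.032) in Metformin+FK506, from 47.7 ± 0.594 FPKM in Control to 346 ± 6.54. Id3, an inhibitor of E proteins, rose by 2.04 (SE 0.060) in FK506 and 2.22 (SE 0.060) in Metformin+FK506, and Tox rose by 1.07 (SE 0.063) in Metformin. Irf4 and Batf, which encode partner factors induced by antigen receptor signals, fell in all treated groups. The log2 fold change of Irf4 was -1.18 (SE 0.044) in Metformin, -2.41 (SE 0.046) in FK506 and -2.47 (SE 0.046) in Metformin+FK506, and that of Batf was -1.13, -1.42 and -1.65 in the same order. Against FK506, where 15.6% of all genes were higher and 15% lower, Metformin+FK506 had 2 of the 10 factors higher and 5 lower (median -0.14). Tox (0.46, SE 0.057) and Id3 (0.18, SE 0.055) were the largest rises, and Pou2af1 (-0.69, SE 0.072), a coactivator that B cells also express, and Lef1 (-0.37, SE 0.047) the largest falls. Against Metformin, beside 40.3% of all genes higher and 37.9% lower, 5 were higher, led by Id3 (2.35) and Tcf7 (1.05), and 4 lower, led by Irf4 (-1.29) and Batf (-0.52).

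Surface and signalling genes of Tfh cells moved both ways. All 16 listed were tested, and 7 rose and 9 fell in FK506 (median -0.47), 5 rose and 9 fell in Metformin (median -0.24) and 7 rose and 9 fell in Metformin+FK506 against Control (median -0.55). Of all genes 41.3% rose and 39.6% fell in FK506, 28.6% and 27.4% in Metformin, and 42.1% and 39.6% in Metformin+FK506. Il6st, which encodes gp130, the chain shared by IL-6 family receptors, rose by a log2 fold change of 0.97 (SE 0.056) in Metformin, 2.00 (SE 0.056) in FK506 and 2.22 (SE 0.056) in Metformin+FK506. The SLAM family receptors of the list moved apart. Cd84 rose by 0.82 (SE 0.043) in FK506 and 1.05 (SE 0.043) in Metformin+FK506, and Ly9 by 0.26 (SE 0.039) and 0.20 (SE 0.039). Slamf1 had log2 fold changes of -0.26 (SE 0.055), -2.45 (SE 0.060) and -2.56 (SE 0.060) in Metformin, FK506 and Metformin+FK506. Fyn, the kinase that SAP recruits, rose by 0.78 (SE 0.038) in Metformin. The cytokine gene Il4 fell by 1.94 on the log2 scale (SE 0.22) in Metformin, from 42.0 ± 2.57 to 11.1 ± 0.766 FPKM. In FK506 5 to 28 reads of Il4 a sample remained and in Metformin+FK506 0 to 22. The receptor chain gene Il12rb1 had log2 fold changes of -0.97 (SE 0.041), -3.37 (SE 0.046) and -2.97 (SE 0.045) in Metformin, FK506 and Metformin+FK506. Between Metformin+FK506 and FK506, where 15.6% of all genes were higher and 15% lower, 6 of 16 were higher, led by Cd200 (0.57, SE 0.034) and Il12rb1 (0.40, SE 0.045), and 2 lower, Il21r (-0.50, SE 0.035) and Tnfrsf4 (-0.13, SE 0.039), with a median of 0.12. Against Metformin, beside 40.3% of all genes higher and 37.9% lower, 5 were higher, led by Il6st (1.24) and Pdcd1 (0.82), which encodes PD-1, and 10 lower, led by Il4 (-5.21) and Slamf1 (-2.30).

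Genes that oppose the Tfh program or mark naive and effector states also moved both ways. In FK506 9 of 15 rose and 4 fell (median 0.26), in Metformin 6 rose and 8 fell (median -0.25) and in Metformin+FK506 against Control 9 rose and 5 fell (median 0.10). The shares called of all genes were 80.9% in FK506 (41.3% higher), 56% in Metformin (28.6% higher) and 81.7% in Metformin+FK506 (42.1% higher). Klf2, which encodes a factor that represses Cxcr5 and induces S1pr1, rose by a log2 fold change of 1.29 (SE 0.13) in Metformin, 4.88 (SE 0.12) in FK506 and 4.72 (SE 0.12) in Metformin+FK506, from 2.01 ± 0.227 FPKM in Control to 68.6 ± 3.90 in FK506. S1pr1, the receptor for egress from lymphoid organs, rose by 3.19 (SE 0.049) in FK506 and 3.01 (SE 0.048) in Metformin+FK506. Thus Klf2 and Cxcr5 were both higher in the groups with FK506. P2rx7, the ATP receptor that limits Tfh cells, rose by 1.5 (SE 0.078) in Metformin. Il2ra, the alpha chain of the IL-2 receptor, whose signals oppose Bcl6, fell in every treated group. Its log2 fold change was -1.16 (SE 0.034), -2.96 (SE 0.036) and -2.92 (SE 0.036) in Metformin, FK506 and Metformin+FK506. Il2rb had -1.16, -1.47 and -1.04 in the same order, and Id2 had -1.33 (SE 0.050) in Metformin. Between Metformin+FK506 and FK506, where 15.6% of all genes were higher and 15% lower, 5 of 15 were higher, led by Il2rb (0.43, SE 0.041) and P2rx7 (0.42, SE 0.074), and 8 lower, among them Ccr7 (-0.81, SE 0.041), with a median of -0.16. Against Metformin, beside 40.3% of all genes higher and 37.9% lower, 8 were higher, led by Klf2 (3.43) and S1pr1 (2.73), and 5 lower, led by Il2ra (-1.76) and Ccr7 (-0.41). Every gene of these 3 lists named with a rise or fall had an adjusted p under 0.05 in edgeR's test.

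**Figure D5:**
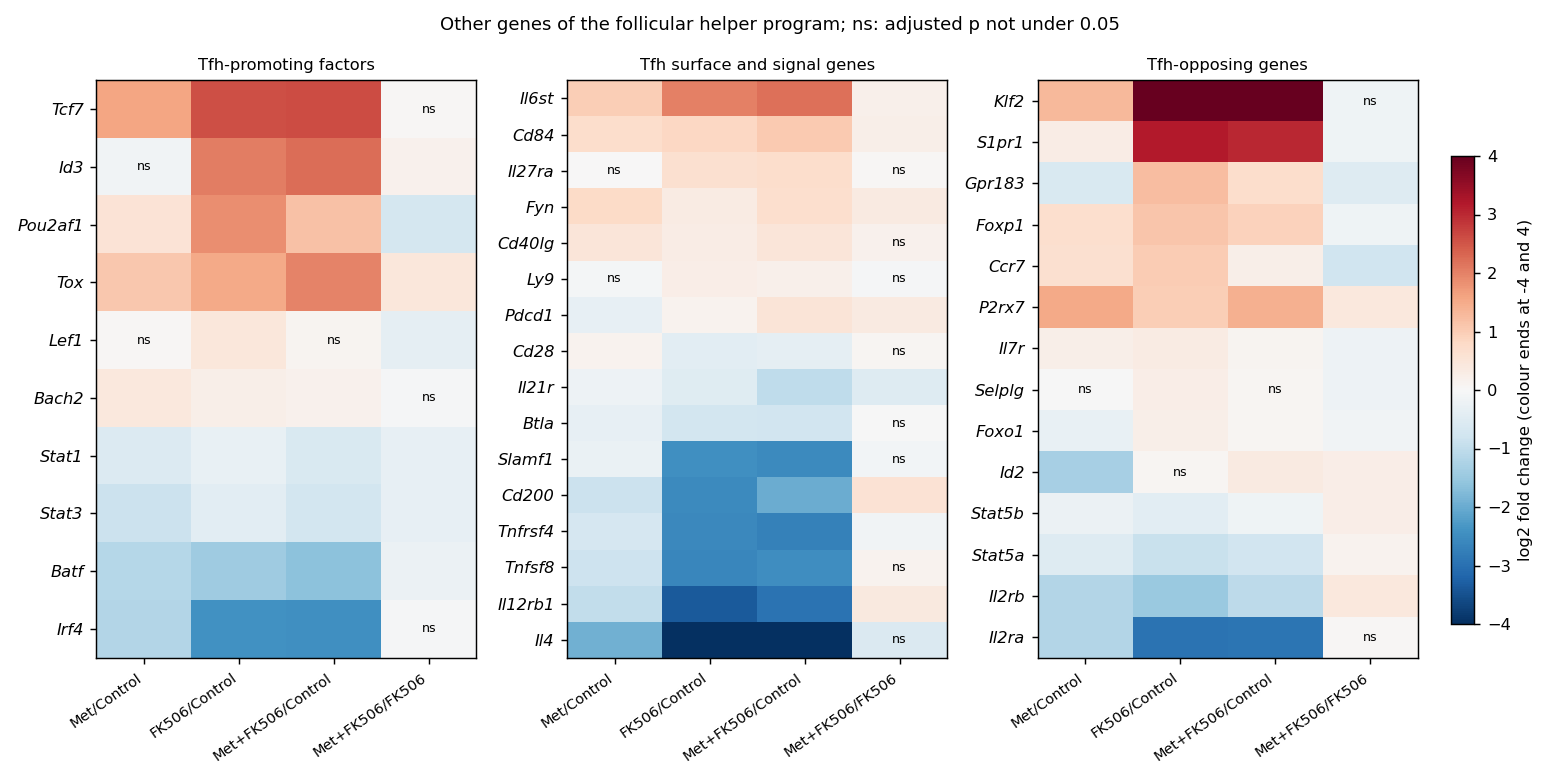
Log2 fold change (colour, ending at -4 and 4) of tested genes of the lists of Tfh-promoting factors (with Id3 and Bach2, which restrain Tfh cells), Tfh surface and signal genes and Tfh-opposing genes (rows) in 4 comparisons (columns), with ns where the adjusted p was not under 0.05. Tcf7, Il6st and Klf2 head the lists in FK506 against Control (2.58, 2.00 and 4.88), and Irf4, Il4 and Il2ra stand at the bottom (-2.41, -6.57 and -2.96).

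Of the ligands that Tfh cells meet on partner cells, Icosl rose furthest in FK506 and in Metformin+FK506 against Control. Of 6 listed, 4 were tested (Icosl, Il6, Cd40 and Pdcd1lg2), and 3 rose and 1 fell in both FK506 and Metformin+FK506 against Control, where 80.9% and 81.7% of all genes passed. Icosl, the ICOS ligand that B cells and myeloid cells carry, stood at 0.446 ± 0.107 FPKM in Control, 0.522 ± 0.189 in Metformin, 31.2 ± 0.697 in FK506 and 49.6 ± 2.54 in Metformin+FK506. Its log2 fold change was 5.91 (SE 0.13, adjusted p = 2.61e-16, edgeR) in FK506 and a further 0.69 (SE 0.082, adjusted p = 8.91e-06) when metformin was added to FK506. The ratio of Icosl to Icos (FPKM) was 0.0163 ± 0.00384 in Control, 1.02 ± 0.0373 in FK506 and 1.51 ± 0.0832 in Metformin+FK506. Cd40, carried by the same cells, rose by 3.35 (SE 0.10) in FK506 and 3.10 (SE 0.10) in Metformin+FK506 and fell in Metformin by 0.67 on the log2 scale (SE 0.12). Il6 rose by 1.63 (SE 0.32) in FK506, from 0.573 ± 0.165 to 2.1 ± 0.351 FPKM. Pdcd1lg2, a ligand of PD-1, fell by 0.89 on the log2 scale (SE 0.061) in FK506 and by 0.23 (SE 0.060) in Metformin. When metformin was added to FK506, 2 of the 4 were higher and 1, Cd40, lower, beside 15.6% and 15% of all genes. The B cell and myeloid markers, which were higher in both FK506 groups, rose with the 3 ligands. In Metformin+FK506 against FK506, where Icosl was higher, all 10 B cell markers were lower, and of 9 myeloid markers 2 were higher and 1 lower.

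Over the 12 samples, which fall into the 4 treatment groups, the likeness of the 10 genes is described by Pearson's r of log2(FPKM + 1), without a test. Bcl6 and Slamf6 went together (r = 0.986) and opposite to Il21 (r = -0.995 for each). Cxcr5, Sh2d1a, Tox2 and Il6ra went together (r between 0.973 and 0.991), and Maf went with Icos (r = 0.954). Among the 12783 genes compared, those most like each gene were Tecpr1 and Zhx2 for Bcl6, Lif and Ccr4 for Il21, Pxdc1 and Slc7a11 for Cxcr5, Nsmce3 and Klhl2 for Icos, F730311O21Rik and Papss2 for Sh2d1a, Id2 and Frmd4b for Maf, Anpep and Dnase1l3 for Tox2, Rasa3 and Glcci1 for Slamf6, Shisa5 for Prdm1, and Sgsh and Tnfrsf1b for Il6ra. The r of these pairs ran from 0.986 for Icos to 0.999 for Tox2, and the number of genes with r over 0.95 from 74 for Maf and 111 for Icos to 2278 for Cxcr5. With so many genes at so high an r over 4 groups, likeness of this kind says little about any 1 gene.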

How the data were processed

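Poly(A) RNA of 12 samples was analysed, 3 in each of 4 groups assigned from the sample labels. The authors deposited unnormalized counts of reads for 45777 genes, and beside them FPKM and TPM values that the authors had scaled to library size and transcript length. The submitters' processing notes list bcl2fastq 2.20.0, Trimmomatic, HISAT2 2.1.0, StringTie 2.1.3b and mm10, without their roles. Use of strand, filters and the treatment of shared reads are not given in the sources used here.

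The quasi-likelihood test of edgeR 4.0.16 was run on the counts in R 4.3.3 (glmQLFTest after glmQLFit, with TMM scaling), in 1 fit of all 4 groups with 8 residual degrees of freedom, over the 15197 genes with 0.5 FPKM or more in 3 or more samples. The threshold was a Benjamini-Hochberg adjusted p under 0.05 over all genes tested. The contrasts were 5 comparisons between groups and 1 interaction. The standard error was the log2 fold change divided by the square root of F. With 3 samples against 3 a two-sided exact permutation test cannot give a p below 0.1 and was not used. Counts of same-group samples varied beyond counting noise (chi-square over degrees of freedom between 4.24 and 17.3) and were each counted, which does not show that they are separate cultures. FPKM means are given with the SD over 3 samples. TPM entered only 1 alternative.

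Genes named were the 10 genes, in 3 related lists the 2 largest rises and falls of each comparison past the threshold, every tested ligand, the highest gene of each marker list, the 2 genes most correlated with each of the 10 (mean FPKM of at least 1), and Cd4 and Il2. Some genes that this rule names are not reported here. C1qa, Fcgr1, Cd68, Cd3e, Ly9 and Bach2 were chosen after their values were seen. The genes and lists were chosen with earlier results of these data known. Alternatives used DESeq2 1.42.0, limma 3.58.1, other scalings and filters, a replicate block, and fits without each sample. Coordinates and sequences come from GRCm38.p6, the same assembly as mm10.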

Additional observations from a re-analysis of the deposited data

Results flagged for a closer look

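For 6 of the 10 genes the effect of metformin differed with and without FK506, by edgeR's interaction test, where 46.5% of all genes tested passed. The difference (effect with FK506 minus effect without, log2 scale) was -2.79 for Bcl6. The FPKM of Bcl6 rose in 3 of 3 Metformin samples above all Control samples and in 3 of 3 Metformin+FK506 samples above all FK506 samples. Relative to Cd3e, Bcl6 was lower in every Metformin+FK506 sample than in every FK506 sample. The difference was -1.78 for Slamf6, 3.40 for Il21, 2.66 for Maf, 0.88 for Prdm1 and 0.38 for Icos. Maf and Icos had groups apart in opposite directions, lower with metformin alone and higher with metformin on top of FK506, though the second of these changes lost its call for Icos without 3 of the samples in turn and in 5 other settings, and the ratio of Icos to Cd3e was lower with metformin both without FK506 and on top of it. Groups of 3 samples were not given an outlier test, and single samples were checked only by fits that left each out.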

How the results depend on the processing

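Of the fold changes of the 10 genes under the alternatives, 1308 kept their direction and side of the threshold, 33 lost their call, 18 gained one and 11 reversed, none of the last from a called value. The reversals were Icos in FK506 against Control (0.16 with limma on FPKM with a pseudocount of 1 or 0.1, 0.062 after quantile normalization, 0.43 scaled to T cell markers, 0.17 scaled to total counts, 0.39 with limma on TPM), the Tox2 interaction (-0.0022 scaled to T cell markers) and the Il6ra interaction (-0.016 and -0.027 with limma on FPKM, -0.20 scaled to T cell markers, -0.014 scaled to total counts). A further limit of 1 on the size of the log2 change left 5 genes in Metformin against Control, 0 in Metformin+FK506 against FK506 and 5 in Metformin+FK506 against Metformin, and limma on log2(FPKM + 0.1) called 4 in Metformin+FK506 against FK506. The cause was not tested beyond that construction. Without each sample in turn the counts ran from 8 to 9 in FK506, 7 to 8 in Metformin, 9 to 9 in Metformin+FK506 (each against Control), 5 to 7 against FK506, 10 to 10 against Metformin and 6 to 7 for the interaction. Scaling sets the zero of all fold changes. In FK506 against Control the median of all genes was 0.024 in the test reported, 0.246 with total counts, 0.422 with TPM and 0.504 with T cell markers, and the share of called genes that were higher was 51.1%, 62%, 71.2% and 72.6%. For the other comparisons scaled to T cell markers that share was 70.5% in Metformin and 69.8% in Metformin+FK506 against Control, 30.5% against FK506, 66.2% against Metformin and 23.1% for the interaction, from 51.1%, 51.6%, 50.9%, 51.6% and 48.3%. With that scaling Cxcr5 (0.23, adjusted p = 0.0141) and Sh2d1a (0.27, adjusted p = 0.00254) passed in Metformin against Control. In a fit with the replicate number as a block the counts were 9, 8, 9, 7, 10 and 6, and no call of the 10 genes changed. The labels do not say that the numbers pair samples. Of 18 same-numbered pairs 0 had a correlation of deviations over 0.1 (median -0.0105), and 5 of 12 samples correlated best with their own number. Depth limits Il21 with FK506 and Tox2 without it, which rest on 21 to 47 reads a sample.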
